A study of Homo sapiens with 3 samples.

Results

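The transcripts described here are 57 messenger RNAs for subunits of the mitochondrial respiratory chain that are encoded in the nucleus, with 1 RefSeq transcript for each gene. They were chosen by name, out of 25443 transcripts with a value in at least 1 sample. By the start of the gene symbol, 33 belong to complex I (NDUF), 4 to complex II (SDH), 6 to complex III (UQCR and CYC1), 10 to complex IV (COX) and 4 to ATP synthase (ATP5). NDUFA4, counted here with complex I for its name, is now known by the symbol COXFA4 and assigned to complex IV.

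Polyadenylated RNA of human embryonic kidney 293 cells, an established cell line labelled HEK 293 and called HEK293T in the methods, was sequenced to ask how the flame retardant decabromodiphenyl ether (BDE-209) and its solvent, dimethyl sulfoxide (DMSO), affect gene expression. There were 3 samples, 1 for each culture condition. The first, BDE-209, was grown for 48 h with 1 µM BDE-209 in medium that also held 1 mM DMSO. The second, DMSO, was grown for 48 h with 1 mM DMSO, and the third, the negative control, in medium with neither compound, although the label of the control sample words this less clearly than the protocol. BDE-209 was therefore never given without its solvent, and the BDE-209 sample differed from DMSO in 1 agent and from the control in 2.

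The respiratory chain sits in the inner mitochondrial membrane. Complex I takes electrons from NADH and complex II from succinate, both pass them to ubiquinone, complex III passes them on to cytochrome c, and complex IV to oxygen. Complexes I, III and IV pump protons across the membrane as they do so, and ATP synthase makes ATP as the protons flow back. All complexes but complex II also hold subunits encoded in mitochondrial DNA, which are not analysed here. Nearly every nucleated cell expresses the chain, and the kidney, whose tubules spend much energy on transport, is rich in it.

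Levels are RPKM, the reads on a transcript divided by its length and by a total of reads for the sample, so that they can be compared between genes. The totals to which the values are scaled, recovered from the steps between the lowest values, were 4843624 reads for the control, 4782044 for DMSO and 4676792 for BDE-209, so that 1 read on a transcript of 1 kb was worth 0.207, 0.209 and 0.214 RPKM. They are smaller than the uniquely mapped totals in the study's own summary and stand in another order between DMSO and BDE-209, and the reason is not given in the sources used here. Scaling to those totals would add 0.042 to every log2 ratio of DMSO to control, -0.039 to those of BDE-209 to DMSO and 0.002 to those of BDE-209 to control. With 1 sample a condition no difference has a replicate check and no test between conditions could be made. Each ratio is given instead with an exact 95% interval (Clopper-Pearson) from the reads recovered for the pair of samples, which covers counting error of these libraries only and leaves out the spread between cultures. The reads are the smallest whole numbers that give the values at a length no shorter than the gene's shortest annotated coding sequence. They are lower bounds where that limit on length holds, and an interval from too few reads is too wide. Of the 6 markers listed for this cell line, vimentin (VIM) measured 299 RPKM in the control, 296 in DMSO and 261 in BDE-209, and keratin 18 (KRT18) 48.1, 43.6 and 40.7. NEFM measured 49.9, 52.9 and 54.1 RPKM, NEFL 26.7, 27.9 and 24.4 and KRT8 6.19, 6.38 and 5.93, and PAX2 had no value in any sample. Markers of leukocytes, erythroid cells, endothelium, fibroblasts, hepatocytes and skeletal muscle summed to at most 7.95 RPKM a list.

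The subunit transcripts were abundant, and nearly flat across the 3 cultures. Their median was 72.4 RPKM in the control, 71.3 in DMSO and 72.6 in BDE-209, beside 11.5, 11.7 and 11.7 for the 14258 protein-coding transcripts with a mean of at least 1 RPKM, the set on which ratios were compared. The 57 transcripts took 1.15% of the RPKM total in the control, 1.14% in DMSO and 1.13% in BDE-209. Of the 57, 52 had a mean of at least 10 RPKM and 25 of at least 100, and 55 were in the compared set, since NDUFS1 and NDUFC1 fell below 1 RPKM. The highest of a transcript's 3 values was a median of 1.09 times its lowest, beside 1.15 times over the compared set and 1.099 times over its 7702 transcripts of at least 10 RPKM. A narrow range was thus shared with other abundant transcripts.

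**Figure D1:**
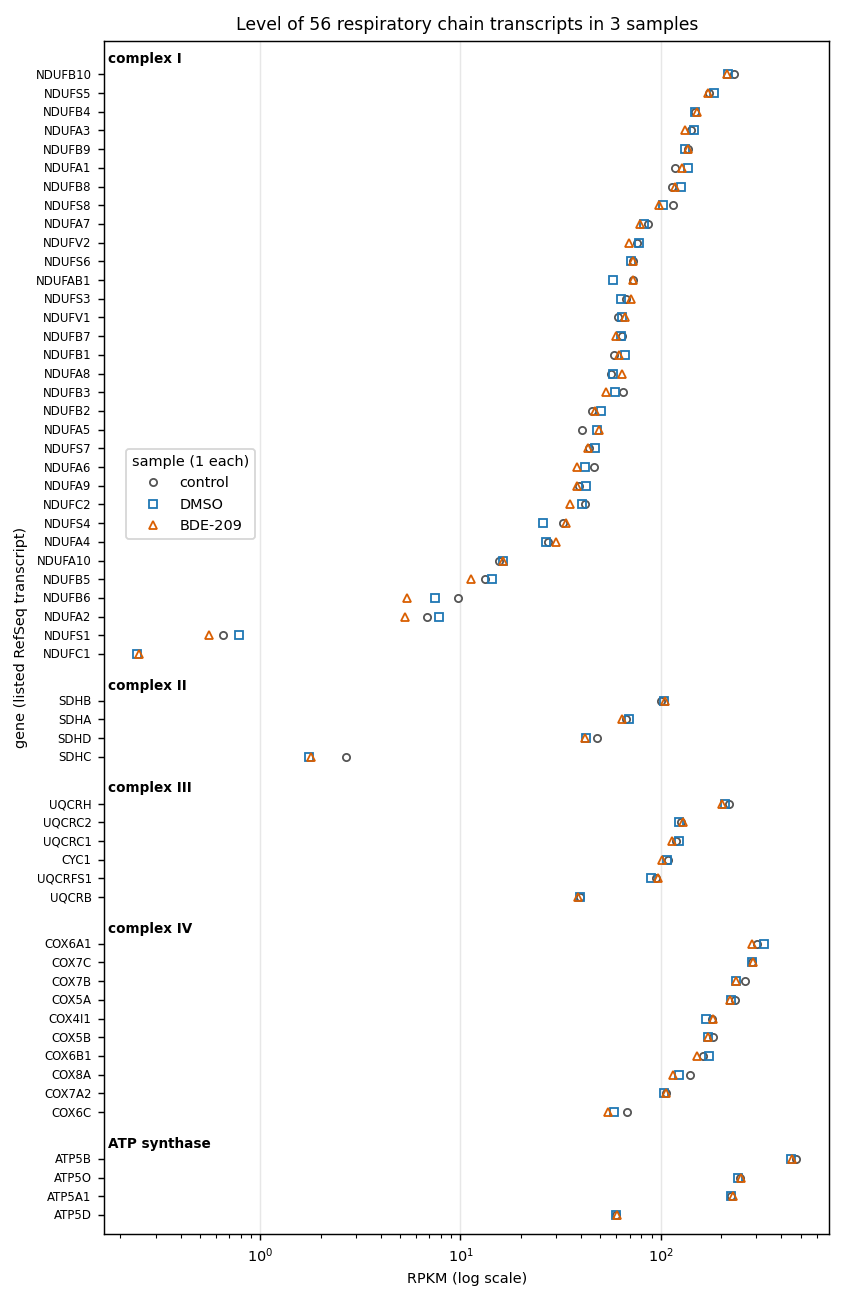
Level of 56 of the 57 transcripts in RPKM, on a log scale, with 1 point for each sample and the genes sorted by mean within a complex. The 3 points of most genes fall nearly on one another, ATP5B is the highest at 447 to 476 RPKM, and NDUFC1 in the control, at 0, is not drawn.

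Levels differed more between complexes than between cultures. ATP synthase had the highest median over its 4 listed subunits, 236 RPKM in the control, 234 in DMSO and 241 in BDE-209. Complex IV followed with 182, 173 and 177 RPKM, and complex III with 114, 116 and 108. Complex I, with 61.5, 58.9 and 61.7 RPKM, and complex II, with 57.5, 56.0 and 53.0, were lowest. This order of ATP synthase, IV, III, I and II was the same in all 3 samples, while complexes I and II lay close to each other. It is the order of the listed subunits. Outside the 57, the control held 275 RPKM for ATP5G2, 244 for ATP5C1 and 215 for ATP5J2, above the median of complex IV. The other ATP synthase subunits looked up lay below that median, with 159 (ATP5I), 150 (ATP5F1), 144 (ATP5E) and 140 RPKM (ATP5G1). Lower still were ATP5H (107), ATP5L (88.7), ATP5G3 (7.79) and ATP5J (3.33). Each of these values is that of 1 transcript, the highest of its gene, and not of the gene. ATP5J had 21 reads in the control.

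Within complexes the levels spread widely. In ATP synthase, ATP5B, the catalytic beta subunit, measured 476 RPKM in the control, 447 in DMSO and 455 in BDE-209. ATP5A1, the alpha subunit that alternates with it in the F1 head, measured 224, 224 and 230 RPKM. ATP5O, which ties the head to the outer stalk, measured 249, 244 and 252 RPKM, and ATP5D, of the rotating central stalk, 59.99, 60.1 and 60.2. Beta and alpha stand in equal number in the enzyme, and the beta transcript was the higher in every sample.

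In complex IV, COX6A1, the form of subunit VIa found in most tissues, was highest with 303 RPKM in the control, 330 in DMSO and 287 in BDE-209. COX7C, a small structural subunit, measured 284, 287 and 288 RPKM. COX4I1, the common form of the largest nuclear-encoded subunit, measured 181, 168 and 182 RPKM, and COX6C, another small subunit, was lowest with 68.1, 58.4 and 54.6. In complex III, UQCRH, the hinge protein, was highest with 220, 209 and 203 RPKM. CYC1, the cytochrome c1 that hands electrons on to cytochrome c, measured 108, 108 and 102 RPKM, and UQCRFS1, the Rieske iron-sulfur protein, 94.8, 89.5 and 97.0. UQCRB was lowest, and flat, with 39.7, 39.5 and 38.7 RPKM.

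In complex II, SDHB, the iron-sulfur subunit, measured 99.8 RPKM in the control, 104 in DMSO and 106 in BDE-209, and SDHA, the flavoprotein that oxidises succinate, 67.2, 69.8 and 64.3. SDHD and SDHC anchor these in the membrane. SDHD measured 47.8, 42.2 and 41.6 RPKM, whereas the SDHC transcript, NM_003001, measured only 2.67, 1.76 and 1.796. In complex I, NDUFB10, of the membrane arm, was highest with 231, 217 and 215 RPKM. NDUFV1, which holds the flavin that receives electrons from NADH, measured 61.5, 64.2 and 65.9 RPKM. NDUFS1 (NM_005006), an iron-sulfur core subunit of the arm in the matrix, measured 0.654, 0.783 and 0.554 RPKM, and NDUFC1 (NM_002494), a small accessory subunit, was lowest with no read in the control and 0.243 and 0.249 RPKM, or 1 read each, in DMSO and BDE-209. No read in the control allows up to 3 reads.

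The remaining transcripts of complex I with 1 or 2 isoforms lay between 15.6 RPKM (NDUFA10, control) and 185 RPKM (NDUFS5, DMSO). NDUFS5, NDUFB4, NDUFA3, NDUFB9, NDUFA1 and NDUFB8, accessory subunits, exceeded 100 RPKM in every sample. NDUFB4 was among the flattest of them, with 148 RPKM in the control, 148 in DMSO and 153 in BDE-209. In complex III the core subunits UQCRC1, with 119, 123 and 114 RPKM, and UQCRC2, with 126, 123 and 129, were close to each other in each sample. In complex IV, COX7B measured 264, 239 and 239 RPKM, COX5A 236, 223 and 221, COX6B1 163, 173 and 152 and COX7A2 106, 104 and 106. The control was the highest sample for COX7B and COX5A, and DMSO for COX6B1.

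The lowest values went with the number of RefSeq transcripts that the gene has in the files. The 6 genes with 3 or more were NDUFA2, NDUFB5, NDUFB6, NDUFC1, NDUFS1 and SDHC, and their listed transcripts were the 6 lowest of the 57, with means of 0.164 to 13.0 RPKM. The 51 genes with 1 or 2 transcripts had means of 16.1 to 459 RPKM. All genes showed the like split, with a median of 6.94 RPKM for the highest transcript of 13653 genes with 1 or 2 and of 1.01 RPKM for that of 1548 genes with 3 or more. How reads shared by isoforms were counted is not given in the sources used here, and its part in these levels was not tested. The values of these 6 transcripts are therefore given as those of the transcript, not of the gene.

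Transcripts of 1 gene often carried nearly the same reads. Those of ATP5A1 had 2052 and 2048 reads in the control, and those of UQCRB, of complex III, 852 and 841. In such genes a sum over isoforms could count reads more than once. Those of ATP5D differed more, with 292 reads for the listed transcript and 239 for the other. In COX7A2 the recovered reads were 91 for the listed transcript and 323 for the other, but the length recovered with the former, 177 bases, is short, so that its reads may be a fraction of the true number and the 2 are not compared. In NDUFS1 the listed transcript had 11 reads in the control, 13 in DMSO and 9 in BDE-209, and a second transcript the same 11, 13 and 9. In NDUFC1, 2 transcripts that were not listed, NM_001184986 and NM_001184991, each had 15 reads in the control, 13 in DMSO and 2 in BDE-209, a log2 ratio of BDE-209 to control of -2.86 with a counting interval of -6.03 to -0.75. These transcripts, singled out after their values were seen, carried the same number of reads in each sample and so stand for 1 measurement.

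**Figure D2:**
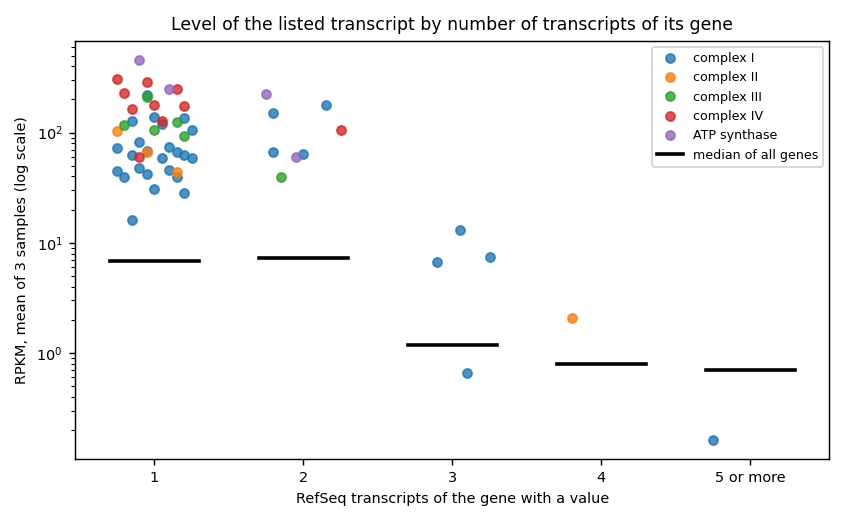
Mean RPKM over the 3 samples, on a log scale, of the 57 listed transcripts by the number of RefSeq transcripts their gene has in the files. The 6 transcripts of genes with 3 or more lie at 0.164 to 13.0 RPKM, below all 51 transcripts of genes with 1 or 2, and black bars give the median, over all genes of a class, of the gene's highest transcript.

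Promoters of these genes have been studied for the DNA words of nuclear respiratory factor 1 (NRF1), of ETS factors such as GABP (also called NRF2), of YY1 and of SP1, which are known regulators of respiratory genes. RefSeq promoters of build GRCh38.p14, from 250 bases before to 50 after the annotated start, were matched for 46 of the 57 genes and read on both strands. The 11 not matched included NDUFB5, NDUFB9, NDUFC2, NDUFS5, SDHC, UQCRB, CYC1, COX6C, ATP5B and ATP5D. The NRF1 word, GCGCA and GCGC with any 1 base between them, stood in 9 promoters (19.6%), beside 7.4% of the 22199 promoters of protein-coding genes. The ETS word CCGGAAG stood in 12 (26.1%, beside 12.8%), the YY1 word AAGATGGCG in 7 (15.2%, beside 2.4%) and the SP1 word GGGCGG in 28 (60.9%, beside 56.3%). In 24 of the 46, at least 1 of the NRF1, ETS and YY1 words was found, and words of different factors overlapped in 1 promoter, that of NDUFS3 (ETS and SP1). Median GC content was 60.7% in these promoters and 62.3% in all.

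By complex, 28 promoters were matched for complex I, 3 for complex II, 4 for complex III, 9 for complex IV and 2 for ATP synthase. ETS words were found in 4, 2, 1, 5 and 0 of these, and NRF1 words in 4, 2, 2, 0 and 1. All 7 YY1 words lay 10 to 25 bases after the start and on the coding strand. SDHA held 4 NRF1 words, and SDHD both an NRF1 and an ETS word. The stretches below show these, with 1 NRF1 word each from complex III (UQCRFS1) and ATP synthase (ATP5O), and the ETS words of COX8A and COX6A1, complex IV genes named in the comparisons that follow. Each runs 5′ to 3′ on the strand of the gene, capitals mark the word (as its reverse complement where the match is on the other strand), and a match is a description of letters, not of a bound site.
SDHA NRF1 word 166 bases before the start, chr5:218146-218171, plus strand: tccgctttGCGCAGGCGCggcgcccc
SDHA NRF1 word 117 bases before, chr5:218195-218220, plus strand: ggcatggtGCGCAGGCGCgatgtccc
SDHA NRF1 word 68 bases before, chr5:218244-218269, plus strand: ggcgtggtGCGCAGGCGCggtatccc
SDHA NRF1 word 19 bases before, chr5:218293-218318, plus strand: ggtgtggtGCGCAGGCGCagtctgcg
SDHD NRF1 word 110 bases before, chr11:112086755-112086780, plus strand: ctgtgtttGCGCATGCGCgacgggtg
SDHD ETS word 77 bases before, chr11:112086788-112086810, plus strand: cctctcgaCTTCCGGttcaccca
UQCRFS1 NRF1 word 31 bases before, chr19:29213165-29213190, minus strand: gcctcctcGCGCCTGCGCcgtggttg
ATP5O NRF1 word 24 bases before, chr21:33915811-33915836, minus strand: gccaacgcGCGCGTGCGCccttgcgc
COX8A ETS word 18 bases before, chr11:63974594-63974616, plus strand: ctccagaaCTTCCGGccagcgca
COX6A1 ETS word 16 bases before, chr12:120438089-120438111, plus strand: cacttccgCTTCCGGcgctgcgg

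The comparison of DMSO with the negative control asks what the solvent does alone. Of the 55 transcripts compared, 4 were past 1.2-fold, all of them in complexes I and II, beside 22.2% of the compared set and 7.24% of its transcripts of at least 10 RPKM. Among the 7702 transcripts of at least 10 RPKM, 299 were higher in DMSO by this size and 259 lower. Of the 55, 0 were higher, beside 11% of the set, and 4 lower, beside 11.2%. None reached 2-fold, a size that 1.39% of the set passed. The counting interval lay off equality for 3 transcripts, beside 8.85% of the set and 11.7% of its transcripts of at least 10 RPKM. Of the 3, 1 was higher in DMSO (beside 5.01%, and 512 of the 7702) and 2 lower (beside 3.84%, and 387 of the 7702). The median log2 ratio of the members was -0.02, against 0.01 for the set, and 31 of the 55 (56.4%) were lower in DMSO, beside 48.5%.

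Among the 3 intervals off equality, NDUFAB1 (NM_005003, chromosome 16, 23592335 to 23607637, minus strand, hg19) had the largest ratio. It encodes the mitochondrial acyl carrier protein, which is a complex I subunit and also serves fatty acid synthesis. It measured 72.4 RPKM in the control, 57.5 in DMSO and 72.6 in BDE-209, from 282, 221 and 273 reads, a log2 ratio of DMSO to control of -0.33 (interval -0.59 to -0.07). DMSO alone was low, and the other samples were level. NDUFA5 (NM_005000, chromosome 7, 123177051 to 123197958, minus strand), an accessory subunit of the arm in the matrix, measured 40.4, 48.2 and 49.2 RPKM, a log2 ratio of DMSO to control of 0.26 (0.03 to 0.48). The control alone was low there. ATP5B (NM_001686, chromosome 12, 57031959 to 57039768, minus strand) had the most reads of all, 4283 in the control against 3967 in DMSO, and a log2 ratio of -0.09 (-0.15 to -0.03).

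The other extremes of this comparison had intervals that included equality. SDHC had a log2 ratio of -0.61 (-1.41 to 0.17) on 37 and 24 reads, and NDUFB6, an accessory subunit of the membrane arm of complex I, -0.38 (-1.11 to 0.32) on 41 and 31. NDUFS4, an accessory subunit of the NADH-binding module, measured 32.4 RPKM in the control, 25.7 in DMSO and 33.5 in BDE-209, a ratio of -0.33 (-0.77 to 0.09). As for NDUFAB1, its lowest sample was DMSO. COX6C had a ratio of -0.22 (-0.47 to 0.02). At the upper end, NDUFA1 had 0.21 (-0.03 to 0.44), NDUFA2 0.19 (-1.36 to 1.76), NDUFB1 0.17 (-0.19 to 0.54) and NDUFB2 0.15 (-0.23 to 0.54), all small accessory subunits of complex I.

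BDE-209 against DMSO is the comparison in which the solvent is the same and the flame retardant differs. Past 1.2-fold were 5 transcripts, all of complex I, beside 20.4% of the compared set and 5.26% of its transcripts of at least 10 RPKM. Of these, 2 were higher in BDE-209, beside 9.92% of the set, and 3 lower, beside 10.5%. Among the 7702 transcripts of at least 10 RPKM, 163 were higher by this size and 242 lower. None of the 55 passed 2-fold, against 1.36% of the set. The interval lay off equality for 2 of 55, beside 6% of the set and 7.3% of its transcripts of at least 10 RPKM. Of the 2, 1 was higher (beside 2.74%, and 260 of the 7702) and 1 lower (beside 3.25%, and 302 of the 7702). The median log2 ratio was -0.02, against -0.00 for the set, and 31 of the 55 (56.4%) were again lower, beside 50.4%.

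The transcripts off equality were NDUFAB1, higher in BDE-209 by a log2 ratio of 0.34 (0.08 to 0.60), and COX6A1 (NM_004373, chromosome 12, 120875893 to 120878540, plus strand), lower by a log2 ratio of -0.20 (-0.35 to -0.06) on 735 against 864 reads. Since NDUFAB1 was low in DMSO only, both of its ratios rest on that 1 library. NDUFS4 had the largest ratio, 0.38 (-0.04 to 0.82), followed after NDUFAB1 by NDUFA4 with 0.17 (-0.07 to 0.42), NDUFS3, a core subunit of the arm in the matrix, with 0.15 (-0.08 to 0.39), and NDUFA8 with 0.14 (-0.12 to 0.40). NDUFA2 had -0.55 on 6 and 9 reads, NDUFB6 -0.46 (-1.32 to 0.37), NDUFB5 -0.34 (-0.87 to 0.17) and NDUFC2 -0.19 (-0.47 to 0.08). The interval of NDUFA2 also included equality, and the first 3 of these are transcripts of genes with 3 or more isoforms and had at most 74 recovered reads in a sample. The length recovered for NDUFA2, 242 bases, is short, so that its reads may be a fraction of the true number and its intervals too wide.

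BDE-209 against the negative control compares the 2 agents together with neither. It gave the most differences, with 8 transcripts past 1.2-fold, beside 22.7% of the compared set and 7.96% of its transcripts of at least 10 RPKM. Of these, 1 was higher in BDE-209, beside 11.1% of the set, and 7 lower, beside 11.6%. Among the 7702 transcripts of at least 10 RPKM, 284 were higher by this size and 329 lower. Again none of the 55 passed 2-fold, against 1.33% of the set. The interval lay off equality for 7, beside 9.43% of the set and 12.6% of its transcripts of at least 10 RPKM, so that the share was near the background. Of these, 1 was higher (beside 4.94%, and 502 of the 7702) and 6 lower (beside 4.48%, and 471 of the 7702). The median log2 ratio was -0.02, against 0.00 for the set, and 31 of 55 were lower, beside 49.5%.

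In complex I, NDUFA5 was the transcript higher in BDE-209, with a log2 ratio of 0.29 (0.06 to 0.51). NDUFB6 (NM_002493, chromosome 9, 32552997 to 32573160, minus strand) had the lowest ratio of all members, -0.85 (-1.67 to -0.07), on 41 reads in the control, 31 in DMSO and 22 in BDE-209. Its values were 9.70, 7.43 and 5.39 RPKM, and a second NDUFB6 transcript, NM_182739, measured 6.48, 4.29 and 3.36 RPKM. NDUFA6, an accessory subunit that sits beside NDUFAB1, measured 46.2, 41.9 and 38.1 RPKM, a ratio of -0.28 (-0.55 to -0.02). NDUFS8, a core subunit that carries iron-sulfur clusters, measured 116, 103 and 98.1 RPKM, a ratio of -0.24 (-0.44 to -0.04). In these 3, the control was highest and BDE-209 lowest, with DMSO between them.

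In complex IV, COX6C had a log2 ratio of -0.32 (-0.57 to -0.07) and COX8A (NM_004074, chromosome 11, 63742092 to 63744015, plus strand), a small accessory subunit, measured 141 RPKM in the control, 124 in DMSO and 116 in BDE-209, a ratio of -0.28 (-0.51 to -0.05). Both again had DMSO between the other samples. In ATP synthase, ATP5B had -0.07 (-0.13 to -0.00) on 3947 against 4283 reads. The remaining extremes included equality, with NDUFA8 at 0.17 (-0.09 to 0.43), NDUFA4 at 0.14 (-0.10 to 0.39), NDUFA1 at 0.10 (-0.13 to 0.34) and NDUFV1 at 0.10 (-0.08 to 0.28) above, and SDHC at -0.57 (-1.38 to 0.21) and NDUFA2 at -0.36 (-2.17 to 1.35) below.

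**Figure D3:**
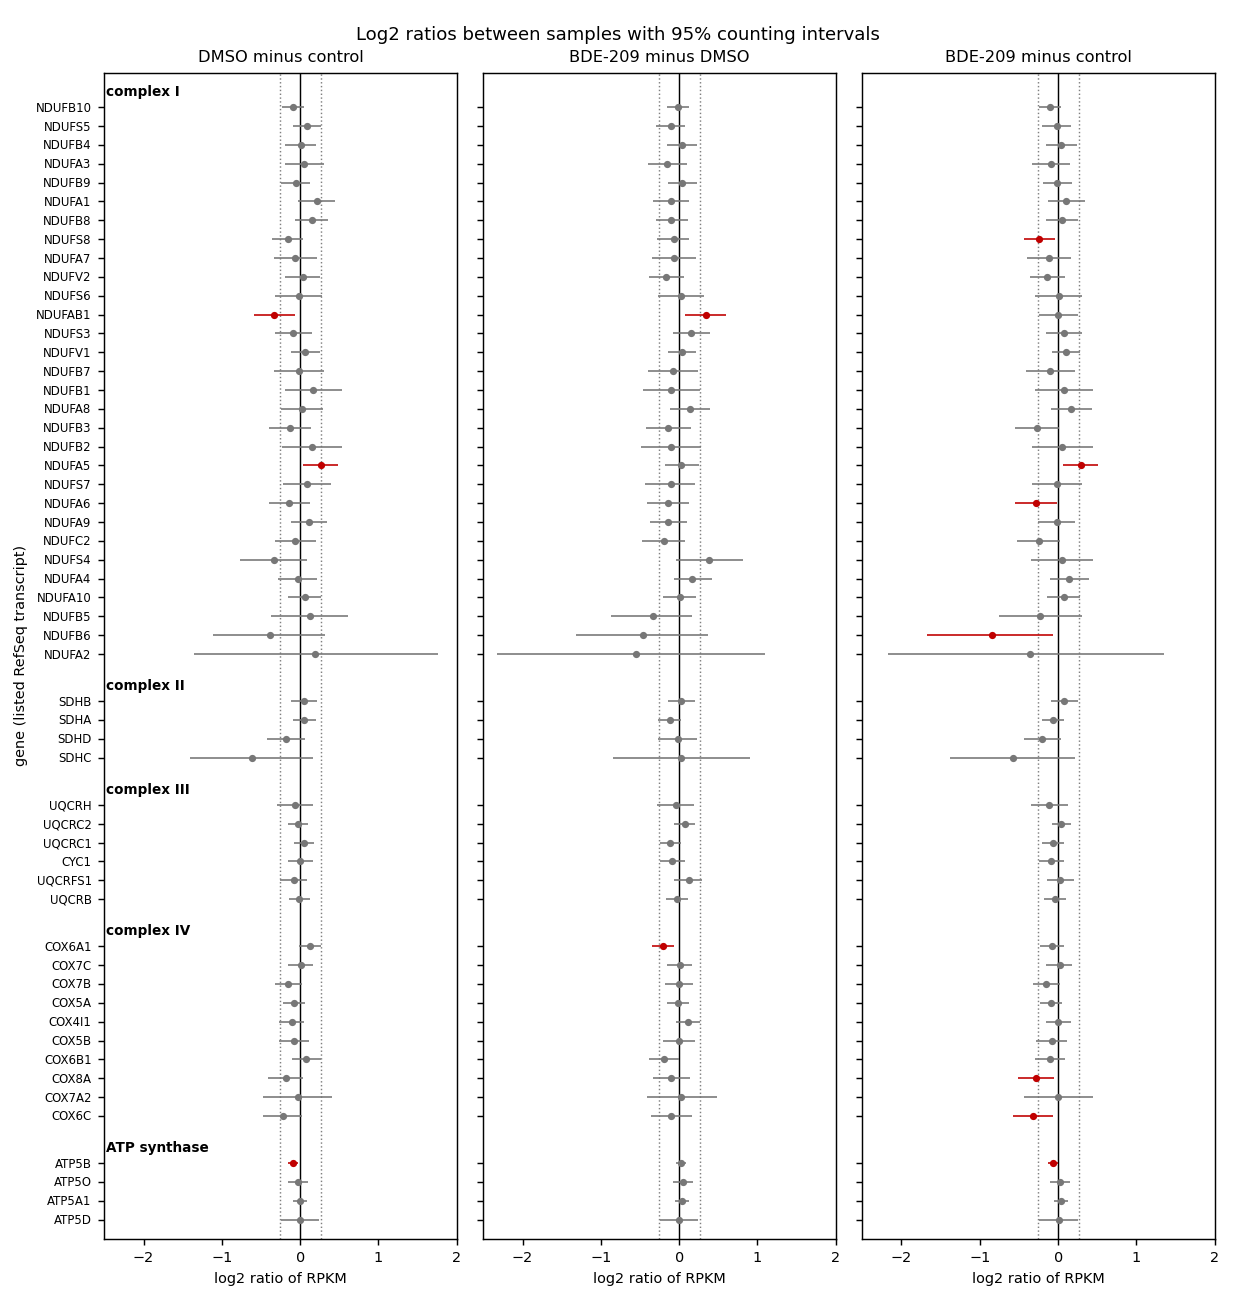
Log2 ratio of RPKM for 54 of the 55 compared transcripts in each of the 3 comparisons, with exact 95% counting intervals as bars, red where the interval lies off equality and dotted lines at 1.2-fold. Most points lie within the dotted lines, the widest bars belong to transcripts with few recovered reads such as NDUFA2, and intervals off equality number 3, 2 and 7.

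Over all 55 transcripts the pooled log2 ratio of reads was -0.03 (-0.05 to -0.00) for DMSO to control, -0.01 (-0.03 to 0.01) for BDE-209 to DMSO and -0.04 (-0.06 to -0.01) for BDE-209 to control. With values scaled to the RPKM total, whose size fell from 534350.6 in the control to 525033.9 in BDE-209, the first and the last were both -0.01 (-0.04 to 0.01) and no longer lay off equality. With the study's uniquely mapped totals the 3 ratios were 0.02 (-0.01 to 0.04), -0.05 (-0.07 to -0.03) and -0.03 (-0.06 to -0.01), so that the direction for DMSO to control and the call for BDE-209 to DMSO turn on the totals used.

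Pooling the reads of a complex narrows the counting interval, at the price that transcripts with many reads weigh most. The recovered reads of COX7A2 in complex IV and NDUFA2 in complex I may be a fraction of the true number. These 2 transcripts may then weigh too little. Complex IV had the lowest pooled log2 ratio of BDE-209 to control, -0.09 (-0.15 to -0.04), from 4784 against 5282 reads, with 7 of its 10 transcripts lower. The pooled ratio was -0.05 (-0.10 to 0.01) for DMSO to control and the same for BDE-209 to DMSO. ATP synthase had -0.06 (-0.10 to -0.01) for DMSO to control, where 2 of 4 transcripts were lower and ATP5B held most of the reads, 0.03 (-0.02 to 0.08) for BDE-209 to DMSO and -0.02 (-0.07 to 0.02) for BDE-209 to control. With values scaled to the RPKM total instead, the ratio of complex IV was -0.07 (-0.12 to -0.01) and that of ATP synthase for DMSO to control -0.04 (-0.09 to 0.00), so the latter no longer lay off equality. With the study's totals complex IV had -0.09 (-0.15 to -0.03) for BDE-209 to control and also -0.09 (-0.14 to -0.03) for BDE-209 to DMSO. Complex I then had -0.05 (-0.10 to -0.01) for BDE-209 to DMSO, and ATP synthase -0.01 (-0.06 to 0.03) for DMSO to control.

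With the recovered totals the intervals of the other complexes included equality. For BDE-209 to control, the pooled log2 ratio was -0.02 (-0.06 to 0.02) in complex I, -0.05 (-0.15 to 0.05) in complex II and -0.03 (-0.09 to 0.03) in complex III. Differences between complexes, as the ratio of their read ratios with an exact interval, do not depend on the totals. Over 10 pairs of complexes, 0 lay off equality for DMSO to control, 1 for BDE-209 to DMSO and 1 for BDE-209 to control, with no adjustment for the number of pairs. For BDE-209 to control complex IV was lower than complex I by a log2 difference of -0.07 (-0.14 to -0.00), and for BDE-209 to DMSO ATP synthase was higher than complex IV by 0.08 (0.00 to 0.15). Both bounds lay close to 0, and the intervals leave out the spread between transcripts and between cultures. The uncertain weights of COX7A2 and NDUFA2 enter these pairs too, and other weights were not tested. NDUFA4, now assigned to complex IV, was counted with complex I here, with 272 reads in the control, 263 in DMSO and 290 in BDE-209. Whether either pair would lie off equality with NDUFA4 in complex IV was not tested. Medians over the transcripts of a complex lay between -0.13 (complex II, BDE-209 to control) and 0.03 (ATP synthase, BDE-209 to DMSO) over all 3 comparisons.

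**Figure D4:**
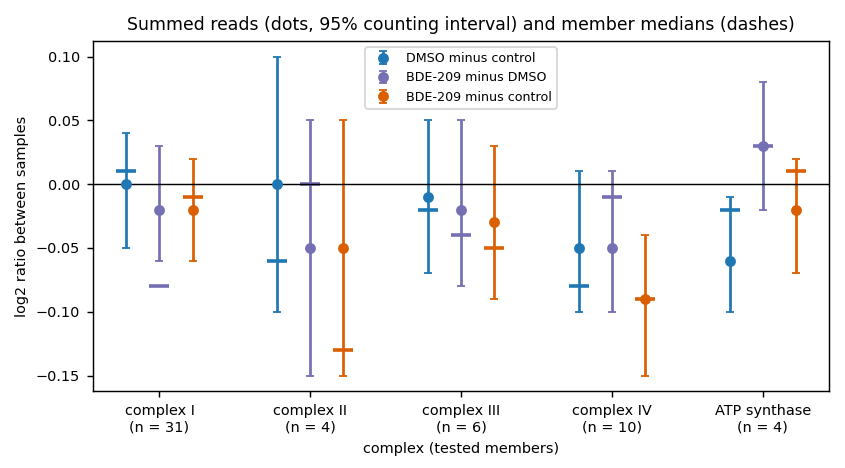
Pooled log2 ratio of reads for each complex in the 3 comparisons, as dots with exact 95% counting intervals, and the median log2 ratio of the complex's transcripts as dashes. Complex IV in BDE-209 against control (-0.09) and ATP synthase in DMSO against control (-0.06) have intervals off equality, and the intervals of all others include it.

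The stepwise order seen in COX8A and COX6C was counted over all transcripts compared. The level was highest in the control, lower in DMSO and lowest in BDE-209 for 16 of 55 (29.1%), beside 17.1% of the compared set and 18.8% of its transcripts of at least 10 RPKM. The opposite order was found for 9 of 55 (16.4%), beside 18.2% of the set. Complex IV had the first order in 4 of 10 transcripts, complex III in 3 of 6, complex I in 8 of 31, complex II in 1 of 4 (SDHD) and ATP synthase in 0 of 4. In most of them the steps lay within counting error, as in UQCRB (39.7, 39.5 and 38.7 RPKM) and COX5B (182, 172 and 172 RPKM). COX8A and COX6C, in which the order was first seen, are among those counted. The count was made with the recovered totals only. The study's totals would add 0.042 to log2 ratios of DMSO to control, more than the size of the UQCRB ratio (-0.01), and -0.039 to those of BDE-209 to DMSO. The flattest transcripts were ATP5D, whose highest value was 1.00 times its lowest, COX7C (1.01 times) and NDUFS6 (1.02 times).

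Further genes of the chain were counted in the same way. Of 21 listed, with 20 subunits and cytochrome c, 15 (71.4%) were lower in BDE-209 than in control, beside 49.5% of the compared set, with a median log2 ratio of -0.08. The interval lay off equality for 1, beside 9.43% of the set, namely cytochrome c (CYCS), with 62.4 RPKM in the control, 60.6 in DMSO and 56.4 in BDE-209 and a ratio of -0.15 (-0.25 to -0.04). In DMSO against control, 13 of 21 were lower, beside 48.5% of the set, and 1 lay off equality, beside 8.85%, namely ATP5F1, of the outer stalk of ATP synthase, with 150 RPKM in the control, 138 in DMSO and 140 in BDE-209 and a ratio of -0.12 (-0.23 to -0.01). Alternative forms of the subunits, most of them forms of certain tissues, were low where they had a value. Of 7 listed (NDUFA4L2, COX4I2, COX6A2, COX6B2, COX7A1, COX7B2 and COX8C) 3 were matched to a transcript. The rest either had no value or a symbol that was not matched. Among those matched 1 passed the filter, the testis form COX6B2, with 2.83, 2.37 and 1.78 RPKM.

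Assembly factors, which build the complexes without staying in them, were counted as well. Of 44 compared, 3 lay off equality in DMSO against control, 0 in BDE-209 against DMSO and 6 in BDE-209 against control, with medians of -0.04, 0.03 and -0.01. The shares of the compared set off equality were 8.85%, 6% and 9.43%, and the factors named next are read as examples. SDHAF4, a complex II factor, measured 4.71 RPKM in the control, 10.7 in DMSO and 10.98 in BDE-209, on 12, 27 and 27 reads, a log2 ratio of BDE-209 to control of 1.22 (0.19 to 2.34). The control was the low sample. SDHAF1, which serves iron-sulfur insertion into SDHB, measured 16.2, 10.4 and 12.9 RPKM, a ratio of DMSO to control of -0.64 (-1.15 to -0.15). NDUFAF3, a complex I factor, measured 12.2, 8.44 and 6.94 RPKM, a ratio of BDE-209 to control of -0.82 (-1.37 to -0.27), and also of DMSO to control of -0.53 (-1.05 to -0.02). NDUFAF4, its partner, had a ratio of BDE-209 to control of -0.39 (-0.70 to -0.08) and COA6, which serves copper delivery to complex IV, -0.45 (-0.81 to -0.09), while SURF1, a complex IV factor, had 0.78 (0.04 to 1.54) on 43 against 26 reads. TIMMDC1, a complex I factor, had 0.20 (0.01 to 0.40).

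Of the regulators whose words were searched, NRF1 measured 8.56 RPKM in the control, 7.30 in DMSO and 7.53 in BDE-209, GABPA 31.9, 31.4 and 34.3, and YY1 64.5, 67.2 and 66.1, with intervals that included equality. SP1 measured 41.8, 45.98 and 43.95 RPKM, and its log2 ratio of DMSO to control, 0.14 (0.04 to 0.24), lay off equality. Of 12 regulators compared, 2 lay off equality in DMSO against control, SP1 and the coactivator PPARGC1A, beside 8.85% of the set. In each of the other comparisons 0 did, beside 6% and 9.43%. Past 1.2-fold in DMSO against control were 2 of 12, both higher, beside 22.2% of the set. In BDE-209 against DMSO 3 were, all lower, beside 20.4%, and in BDE-209 against control 1, higher, beside 22.7%. PPARGC1A measured 0.915, 1.59 and 1.19 RPKM on 28, 48 and 35 reads, a log2 ratio of DMSO to control of 0.80 (0.09 to 1.52). GABPB1, also of GABP, measured 3.77, 4.70 and 3.34 RPKM, a ratio of 0.32 that included equality (-0.21 to 0.85). Of 15 enzymes of the TCA cycle and pyruvate dehydrogenase compared, 3 lay off equality in BDE-209 against control, beside 9.43% of the set and 12.6% of its transcripts of at least 10 RPKM, with a median of -0.02, and OGDH, of the oxoglutarate dehydrogenase complex, also passed 1.2-fold at 19.7, 18.4 and 16.2 RPKM (-0.28, interval -0.49 to -0.07). The others were citrate synthase (CS), at 0.08 (0.01 to 0.15), and DLD, shared by the dehydrogenase complexes, at 0.15 (0.02 to 0.29). Of 14 glycolytic enzymes, 11 were lower in BDE-209 than in control, beside 49.5% of the set, with a median of -0.09. The interval lay off equality for 6 of them, beside 4.48% of the set in that direction, and 0 were past 1.2-fold. Among the 7702 transcripts of at least 10 RPKM, 471 lay off equality in that direction. Several of the glycolytic transcripts are among the most abundant, whose intervals are narrow, as in GAPDH at 2124, 2150 and 2064 RPKM.

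Of the 57 genes, 37 have at least 1 pseudogene of the same name in the annotation (GENCODE 44 lifted to hg19), up to 17 for COX6C, with 12 for NDUFA5 and 7 for COX6A1. Reads that match such copies as well were left out by the authors' rule of unique mapping, and the part of this rule in the levels and ratios was not tested.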

How the data were processed

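Reads of 49 bases from 1 end were mapped by the authors with SOAPaligner on hg19 with up to 2 mismatches. Those with a unique position were turned by the authors into RPKM, deposited as a list of RefSeq identifiers and values for each sample. Transcripts absent from a list were taken as 0. Symbols came from a RefSeq gene table (assembly GRCh38.p14), which matched 24434 of 25443 transcripts, and hg19 positions from GENCODE 44. From there, the totals behind the RPKM values and whole reads were recovered from the RPKM steps with Python 3.11.15, numpy 2.4.6, scipy 1.17.1 and pandas 2.3.3. The reads are the smallest whole numbers that give the values at a length no shorter than the gene's shortest annotated coding sequence. They are lower bounds where that limit on length holds. The scripts were tested on simulated samples, in which the search began at 49 bases, so that the limit by coding length was not tested. Ratios are of deposited RPKM without a pseudocount, over protein-coding transcripts with a mean of at least 1 RPKM. No test was run, for want of replicates, and counting was set beside fold sizes (1.2-fold, and 2-fold as in the study). For genes outside the 57 the transcript with the highest mean was used. Members with the largest 5 and smallest 5 ratios, the highest and lowest of each complex and a few core subunits are named by rule, with listed genes past 1.2-fold and off equality; other members and CYCS serve as examples, and regulators were named for their words. The members and lists were chosen with earlier results of these data known. Alternatives covered scaling, pseudocount, filter, fold size, interval, isoform sums and, added after seeing the data, the totals of uniquely mapped reads in the study's supplement, used as a scaling only. Values of 1 member enter the counts and medians but are not reported here by gene.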

Additional observations from a re-analysis of the deposited data

How the results depend on the processing

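Of 174 alternative values, 149 stayed close to the value given and 25 did not. A count was called close if the larger value was at most 1.5 times the smaller. A median was called close if it moved by less than the mean distance between the pooled ratio and its interval bounds. A change of sign counted by itself only where that interval lay off equality. Some medians near 0 that changed sign are therefore among the 149, such as that of complex III given below. Counts past 1.2-fold were 4 for DMSO against control, 5 for BDE-209 against DMSO and 8 for BDE-209 against control. They became 2, 3 and 5 among transcripts of at least 10 RPKM, and 2, 2 and 5 without genes with 3 or more RefSeq transcripts, a choice made after seeing the data. They were 16, 14 and 15 at 1.1-fold, 1, 0 and 1 at 1.5-fold, and 0 in each at 2-fold. Scaling to the RPKM total gave 5 for BDE-209 against control, and a median log2 ratio of 0.00 in place of -0.02, since that scaling moved all ratios up. With 99% intervals, those off equality numbered 1, 1 and 0 in place of 3, 2 and 7, so that 0 of the BDE-209 to control ratios held at that level. Scaling to the study's uniquely mapped totals, added after seeing the data, changed the sign of medians for DMSO against control. They went from -0.02 to 0.02 over all members and in complex III, and from -0.02 to 0.03 in ATP synthase. For BDE-209 against DMSO the same scaling took the median of ATP synthase from 0.03 to -0.01. It moved the median over all members for BDE-209 against DMSO to -0.06 and the count off equality there to 5. The median log2 ratio of complex II for DMSO against control changed sign, to 0.05 without SDHC from -0.06. No paired analysis was possible because each condition has 1 sample. Depth limits the low transcripts most. At the 6 to 9 reads recovered for NDUFA2, the interval could hide a change past 2-fold, but these reads may be a fraction of the true number. ATP5B, with 3947 to 4283 reads, could not hide a change of 1.2-fold within its interval. Intervals cover counting error only, and the spread between cultures is not known.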
